A study of Schizosaccharomyces pombe with 6 samples.

Results

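The genes for 18S and 28S ribosomal RNA of fission yeast (Schizosaccharomyces pombe) were examined in lists of ChIP-seq regions called for the SUMO ligases Pli1 and Nse2. They were taken from the ASM294v3 annotation as every 18S or 28S gene at either end of chromosome III, which gave 8 of 12574 nuclear genes. Of these, 5 are 18S genes (SPRRNA.42 to SPRRNA.46) and 3 are 28S genes (SPRRNA.47 to SPRRNA.49). There were 3 ChIP libraries: cells with Pli1-12Pk, cells with Nse2-12Pk and cells of an untagged control strain, each with an input that was not analysed here on its own. All cultures were growing logarithmically in rich medium (YES), were mixed with budding yeast carrying Ku70-cMyc as a calibrator, crosslinked with formaldehyde and precipitated with an anti-Pk antibody. The labels do not give the promoters of the tagged genes, further alleles or the number of clones. Each strain had 1 ChIP library, so no test between strains was possible, and a difference between lists carries no replicate check.

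Ribosomal RNA genes lie in tandem repeats. RNA polymerase I copies each repeat into a precursor from which the 18S, 5.8S and 28S RNAs are cut, while the internal spacers ITS1 and ITS2 are discarded. The intergenic spacer between one 28S gene and the next 18S gene holds sites that arrest replication forks, some of them bound by the termination factor Reb1. Pli1 is a ligase of the PIAS family and attaches the small modifier SUMO to nuclear proteins. Nse2 is the SUMO ligase subunit of the Smc5/6 complex, which works in DNA repair and in the upkeep of repeated DNA. The arrays of living cells are longer than those of the assembly, so a region called on an assembled copy stands for reads from many copies.

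The assembly holds 3 complete repeats. On the left arm, transcribed toward the chromosome end (minus strand), SPRRNA.44 (18S, chrIII:21289-23130) is followed by SPRRNA.48 (28S, chrIII:16927-20411), and SPRRNA.43 (18S, chrIII:10419-12260) by SPRRNA.47 (28S, chrIII:6057-9541). The left end closes with SPRRNA.42 (18S, chrIII:1-1390). On the right arm (plus strand) SPRRNA.46 (18S, chrIII:2440994-2442835) is followed by SPRRNA.49 (28S, chrIII:2443713-2447197), and the chromosome ends in SPRRNA.45 (18S, chrIII:2451883-2452883). The complete 18S copies are 1842 bp long. SPRRNA.42 lacks the last 452 bases and SPRRNA.45 the last 841, so neither contains the 3′ part of the gene. The 3 copies of 28S are 3485 bp long.

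Within each gene the copies were identical. The 5 copies of 18S differed at 0 bases, apart from 1 undetermined base in SPRRNA.42, and so did the 3 copies of 28S. Of the 50-base words of the 8 copies, 100% occurred more than once in the genome. Sequence alone therefore cannot assign a read that lies inside an 18S or 28S gene to one copy, and the copies are not replicates. The spacers differed between the chromosome ends but not within the left end: the right intergenic spacer had 12 mismatches and 31 gapped bases against the left one (99.1% identity), ITS1 had 2 gapped bases (99.5%) and ITS2 had 2 (99.3%). The sources used here do not say how reads that fit several copies were placed.

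Summits, the positions of highest signal in a region, recurred at a few offsets in the genes. Offsets are counted from 1 at the 5′ base of the gene. The sequences at these offsets are shown first, since the results below turn on them; each is written 5′ to 3′ on the strand of the gene, from the ASM294v3 assembly (RefSeq), and capitals mark the span of the summits found there. Within the genes each window is identical in all copies that reach it. The windows in 28S, with positions from SPRRNA.47 (minus strand) for the 5′, central and 3′ sites and from SPRRNA.49 (plus strand) for the other two, are:
28S 5′ site (offsets 135 to 136, chrIII:9376-9437): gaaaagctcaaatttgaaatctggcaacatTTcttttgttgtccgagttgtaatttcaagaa
28S site in the first part (offsets 676 to 681, chrIII:2444358-2444423): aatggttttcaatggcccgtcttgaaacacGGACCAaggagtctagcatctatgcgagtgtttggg
28S central site (offsets 1751 to 1766, chrIII:7746-7821): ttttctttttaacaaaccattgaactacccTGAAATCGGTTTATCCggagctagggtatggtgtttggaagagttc
28S site past the centre (offsets 2086 to 2094, chrIII:2445768-2445836): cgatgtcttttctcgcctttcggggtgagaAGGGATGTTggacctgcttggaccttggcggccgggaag
28S 3′ site (offsets 3239 to 3244, chrIII:6268-6333): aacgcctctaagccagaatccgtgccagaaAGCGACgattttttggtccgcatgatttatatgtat

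The windows in 18S and before it, which hold the other summits of the repeat, are from SPRRNA.46 (plus strand) for the central site and from SPRRNA.43 (minus strand) for the 3′ site. The site upstream of 18S is shown for a left copy, SPRRNA.43, and for a right one, SPRRNA.46. This is because the same sequence stands 2 bases further from the gene start on one arm than on the other. Capitals in both windows mark the span of the upstream summits over both arms, and so fall on different bases of the shared sequence. Before SPRRNA.46 itself the summits lay at 695 and 698 bp. The windows, cut at equal distances, share 66 bases without a mismatch:
18S central site (offsets 713 to 725, chrIII:2441676-2441748): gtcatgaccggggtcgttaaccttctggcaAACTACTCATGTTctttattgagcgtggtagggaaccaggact
18S 3′ site (offsets 1485 to 1540, chrIII:10691-10806): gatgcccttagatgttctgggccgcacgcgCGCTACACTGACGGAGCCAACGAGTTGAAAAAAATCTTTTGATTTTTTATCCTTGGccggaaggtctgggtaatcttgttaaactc
Upstream of SPRRNA.43 (692 to 699 bp before the gene, chrIII:12922-12989): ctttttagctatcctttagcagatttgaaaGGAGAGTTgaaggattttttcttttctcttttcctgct
Upstream of SPRRNA.46 (692 to 699 bp before the gene, chrIII:2440265-2440332): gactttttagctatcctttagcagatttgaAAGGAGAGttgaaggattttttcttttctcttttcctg

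**Figure D1:**
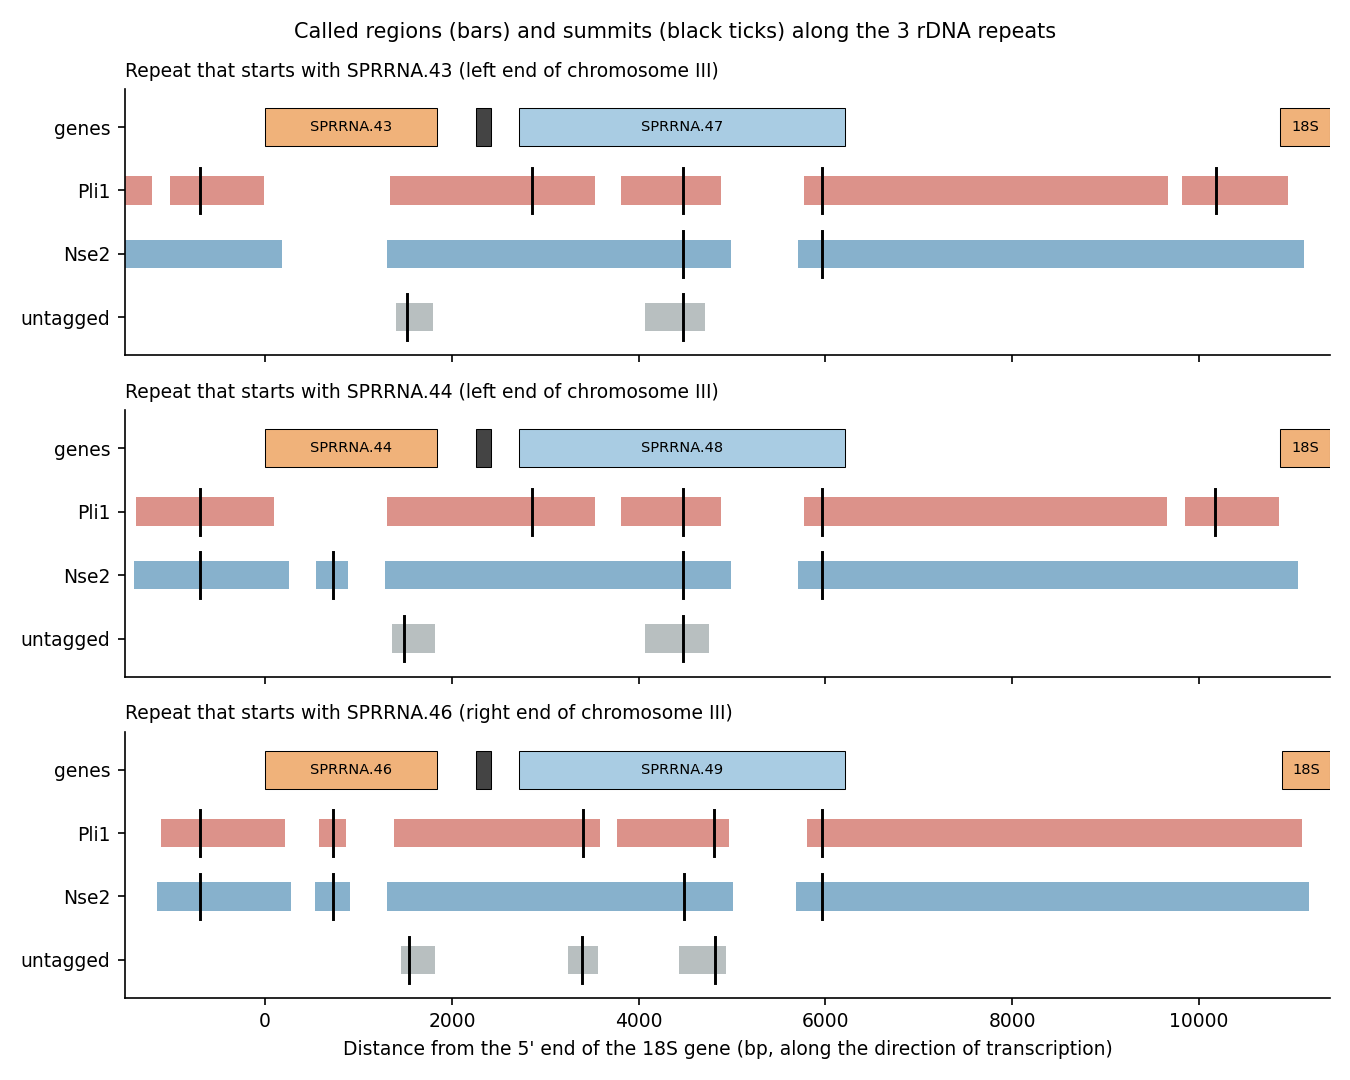
Map of the 3 complete rDNA repeats, with the distance from the 5′ end of the 18S gene in bp on the x axis, the 18S, 5.8S and 28S genes as boxes, and the regions of the Pli1, Nse2 and untagged lists as bars with black ticks at their summits. Both tagged lists lack regions over a stretch of 28S and stretches of 18S, cover the spacers almost wholly, and have a summit near the 3′ end of each 28S copy, where the untagged list has none.

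The 18S and 28S genes were the least filled of the rRNA genes in the tagged lists. Bases of the 8 copies inside regions came to 53.4% in the Pli1 list, 67% in the Nse2 list and 18.3% in the untagged list. The lists as wholes covered 99.3%, 99.8% and 18.7% of the 3 chromosomes in the same order. The genes make up 0.146% of the chromosomes, yet they held 8554 of the 93055 bases that the Pli1 list left uncovered (9.19%) and 6057 of the 25435 bases that the Nse2 list did (23.8%). For the untagged list, whose peaks are short, the share was 0.147%.

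Each tagged list left a part of every copy uncovered. None of the 8 copies was wholly inside regions of either tagged list, whereas 2.48% of all genes were not wholly inside regions of the Pli1 list and 0.541% were not in the Nse2 list. None was wholly inside untagged peaks either, which held for 97.6% of all genes. Regions touched all 8 copies in the Pli1 and Nse2 lists, in each of which 100% of genes, after rounding, were touched, and 6 of 8 in the untagged list, against 40.6% of all genes. Other genes of the ribosome were almost always complete: 136 of 138 genes for ribosomal proteins, 36 of 36 genes for 5S RNA and 3 of 3 genes for 5.8S RNA lay wholly inside Pli1 regions, and 138, 36 and 3 lay wholly inside Nse2 regions. The 5.8S gene sits between 18S and 28S in the same precursor, and like the 18S and 28S copies all of its 50-base words were repeated. The part of repeated sequence in the gaps was not tested. The read depth behind the lists is not given, so uncovered bases are not shown to be free of signal.

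Among the copies, 28S was filled more than 18S in the tagged lists, and the right 18S copies more than the left ones, in the Nse2 list by little over SPRRNA.44. In the Pli1 list, SPRRNA.47, SPRRNA.48 and SPRRNA.49 were covered to 66.6%, 66.6% and 70.9%, and in the Nse2 list to 79.5%, 79.3% and 80.5%. The untagged list covered 18.3%, 19.7% and 24% of them. The 28S copies thus lay close to each other within a list. The complete 18S copies SPRRNA.43, SPRRNA.44 and SPRRNA.46 were covered to 27.5%, 34.3% and 52.6% by Pli1 regions, to 39.3%, 63% and 64% by Nse2 regions, and to 21.6%, 24.8% and 19.4% by untagged peaks. The truncated SPRRNA.42 was covered to 6.12% and 18.1% in the Pli1 and Nse2 lists, and SPRRNA.45 to 51.4% and 66%, while no untagged peak touched either one. Cover thus differed among the complete 18S copies although their sequence is the same. The truncated copies lack stretches of the gene, so their shares are over other bases.

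**Figure D2:**
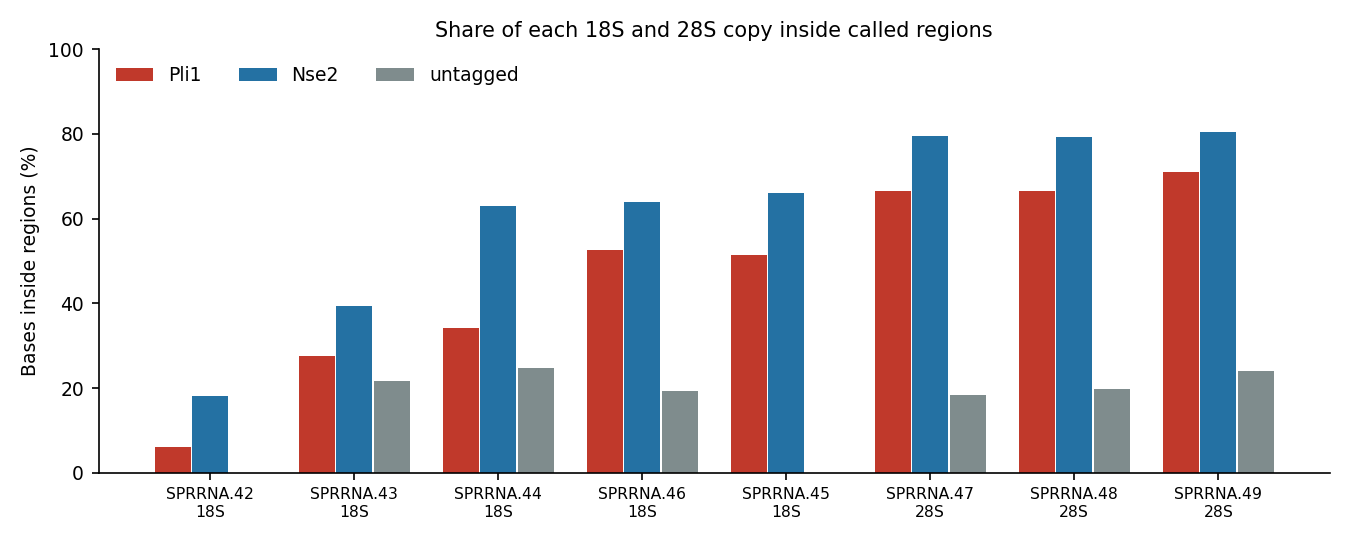
Share of each copy's bases inside called regions (y axis, percent of annotated length) for the Pli1, Nse2 and untagged lists, with 1 bar per list and no error bars because each list comes from 1 library. Cover of 28S copies is 66.6% to 70.9% for Pli1 and 79.3% to 80.5% for Nse2, while that of 18S copies runs from 6.12% to 52.6% and from 18.1% to 66%.

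The gaps of 28S lay at similar offsets in its copies, while those of 18S varied more. In 28S the main gap ran from offset 2165 to 3055 in SPRRNA.47, from 2166 to 3054 in SPRRNA.48 and from 2252 to 3084 in SPRRNA.49 in the Pli1 list. In the Nse2 list it was narrower, from 2267 to 2982, from 2266 to 2985 and from 2288 to 2965 in the same copies. A second 28S gap, at offsets 813 to 1086, 814 to 1088 and 869 to 1049, appeared in the Pli1 list, while the Nse2 list covered those bases in all 3 copies. In both lists the gaps of SPRRNA.49, on the right arm, were shorter than those of the left copies.

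In 18S the tagged lists covered the start, a block around offset 720 and the last part of the gene. The 5′ edge of the gene was inside Pli1 regions up to offset 85 in SPRRNA.42, 96 in SPRRNA.44, 210 in SPRRNA.46 and 215 in SPRRNA.45, and not at all in SPRRNA.43. Nse2 regions reached offsets 251, 184, 256, 274 and 284 in SPRRNA.42, SPRRNA.43, SPRRNA.44, SPRRNA.46 and SPRRNA.45. The central block was called for Pli1 at offsets 576 to 868 in SPRRNA.46 and 569 to 868 in SPRRNA.45, the right-arm copies. For Nse2 it was called there too (537 to 904 and 509 to 885) and in SPRRNA.44 (540 to 887). SPRRNA.42 and SPRRNA.43 had no such block in either list. From offset 1378 to the end of the gene, all 3 complete copies were covered in both tagged lists.

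Stretches that no list called in any copy made up 32.8% of 18S (605 bp, at offsets 285 to 508 and 905 to 1285) and 19.5% of 28S (678 bp, at offsets 2288 to 2965). Their GC content was 47.6% in 18S and 45.6% in 28S, against 47.3% for the 452 bp at the 3′ end of 18S that both tagged lists called in the 3 copies that reach it, and 47.9% for the 28S bases that both called in every copy. GC content of uncalled sequence was thus slightly lower than that of called sequence in 28S. In 18S it was close to that of the 3′ end only with the stretches pooled. It was 51.8% at offsets 285 to 508 and 45.1% at offsets 905 to 1285. The whole 18S gene had a GC content of 45%, below that of its pooled uncalled stretches. The whole 28S gene had 47.1%, above that of its uncalled stretch. The file headers speak of reads mapped uniquely to S. pombe, and the sources used here do not say whether reads that also fit the budding yeast calibrator were dropped. How this bears on the uncalled stretches was not tested. The first 18S stretch is printed whole, and of the other stretches the middle 200 bases, so that the uncalled sequence can be compared with that at the summits; positions are from SPRRNA.43 for 18S and SPRRNA.47 for 28S (minus strand):
18S uncalled stretch, offsets 285 to 508 (chrIII:11753-11976): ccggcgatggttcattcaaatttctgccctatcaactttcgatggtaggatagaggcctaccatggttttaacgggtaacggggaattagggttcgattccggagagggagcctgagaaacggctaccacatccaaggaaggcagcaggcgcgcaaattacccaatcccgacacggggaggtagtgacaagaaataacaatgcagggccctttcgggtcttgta
18S uncalled stretch, offsets 996 to 1195 (chrIII:11066-11265): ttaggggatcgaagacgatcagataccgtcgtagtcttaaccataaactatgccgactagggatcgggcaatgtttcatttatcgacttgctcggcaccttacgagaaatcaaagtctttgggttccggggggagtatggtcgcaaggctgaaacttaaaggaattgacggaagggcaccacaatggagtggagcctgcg
28S uncalled stretch, offsets 2527 to 2726 (chrIII:6816-7015): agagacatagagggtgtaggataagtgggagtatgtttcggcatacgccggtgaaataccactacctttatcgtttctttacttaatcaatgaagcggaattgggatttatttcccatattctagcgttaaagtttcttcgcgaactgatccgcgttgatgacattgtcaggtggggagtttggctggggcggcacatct

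**Figure D3:**
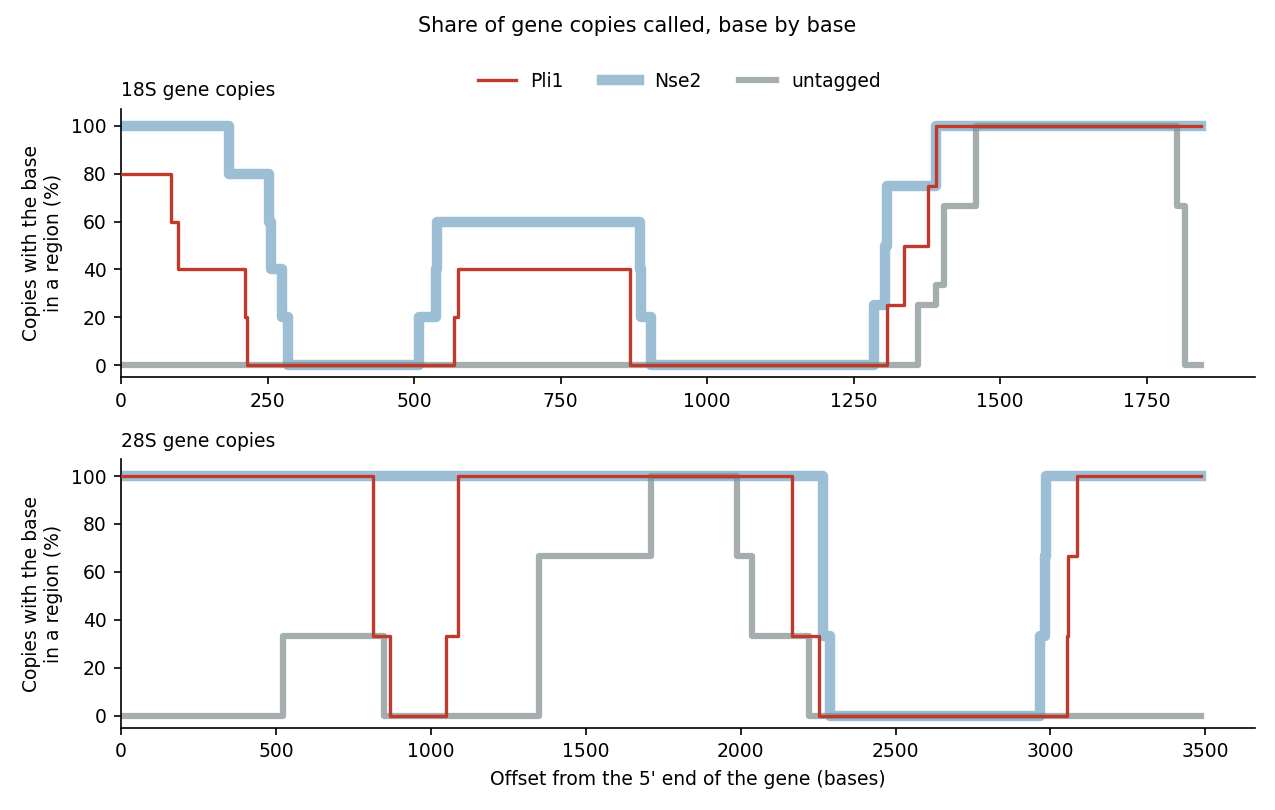
Percent of the gene copies reaching an offset whose base lies in a called region (y axis) along 18S (top) and 28S (bottom), with the offset from the 5′ end in bases on the x axis and 1 line per list. Both tagged lines are at 0 between offsets 2288 and 2965 of 28S and between 285 and 508 and 905 and 1285 of 18S, and the untagged line is above 0 only near the 3′ end of 18S and in the first part and the centre of 28S.

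Summits fell in 5 of the 8 copies in the Pli1 list, in 6 in the Nse2 list and in 6 in the untagged list. The share of all genes that hold a summit was 2.95%, 0.596% and 35% in the same order. The copies share their reads, so these counts are not independent of each other. In number, 11 Pli1 summits, 9 Nse2 summits and 7 untagged summits lay in the 8 copies. The 14 Pli1 regions and 11 Nse2 regions that touched a copy were at most 5301 bp and 5489 bp long. Median region lengths in the whole lists were 28719 bp (Pli1) and 69235 bp (Nse2). A region has 1 summit only, so short regions place more summits per base than long ones. The shares of copies and of all genes that hold a summit are therefore not like for like. A site inside a region but away from its summit is not shown to be free of signal.

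The 3′ site of 28S was present in every copy in both tagged lists and in none in the untagged list. Pli1 summits lay at offsets 3239, 3242 and 3244 of SPRRNA.47, SPRRNA.48 and SPRRNA.49, with scores of 19930, 20522 and 17666 (ranks 9, 8 and 10 of 299). Nse2 summits lay at 3241, 3242 and 3241, with scores of 28761, 27885 and 23590 (ranks 11, 12 and 14 of 62). The summits of the ligases were 2, 0 and 3 bp apart in these copies. The nearest untagged peak was 1252, 1207 and 1025 bp away from the Pli1 summits. The score is the authors' and ranks regions within its own list, since its scale is not given. In each tagged list, the region of this site began next to the main 28S gap and ran on into the intergenic spacer. Counted whole, these regions were 3888, 3883 and 5301 bp long in the Pli1 list and 5420, 5350 and 5489 bp in the Nse2 list. The Nse2 regions, and the Pli1 region of SPRRNA.49, crossed the spacer into the next 18S gene.

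The central site of 28S was shared by all 3 lists. Nse2 had its highest scores of the repeat there, 39070 (offset 1751), 40047 (offset 1758) and 37338 (offset 1766) in SPRRNA.47, SPRRNA.48 and SPRRNA.49, ranks 3, 2 and 5. Pli1 summits lay at offsets 1751 and 1757 of SPRRNA.47 and SPRRNA.48 (21798 and 22584). Untagged summits lay at 1754 and 1753 of the same copies (5819 and 6247, ranks 5 and 4 of 3535). In these left-arm copies the tagged summits were thus at most 5 bp from an untagged summit. Of the 10 highest scores of the untagged list, 3 had their summit in 18S and 4 in 28S. For the Pli1 list the numbers were 0 and 9, and for the Nse2 list 0 and 3. High rank at these genes was therefore not particular to the tagged strains.

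SPRRNA.49 departed from the left copies in the Pli1 and untagged lists alike. There the untagged list had a peak at offsets 522 to 848 (summit 676, score 12828, the highest of the list) and another at 1712 to 2219 (summit 2094, score 7758, rank 2). The Pli1 list had summits at 681 (25982) and 2086 (22274), which is 5 and 8 bp from the untagged ones, and none at the central site. The Nse2 summit stayed at 1766 in SPRRNA.49, 328 bp from the nearest untagged summit, although still inside an untagged peak. Since the gene sequence is the same in all 3 copies, differences between copies cannot be told apart from the placement of reads.

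The 5′ site of 28S was a Pli1 summit in the left copies. It lay at offsets 135 and 136 of SPRRNA.47 and SPRRNA.48 and had the highest Pli1 scores of the whole list, 28554 and 28692 (ranks 2 and 1 of 299). The nearest untagged peaks were 1053 and 1040 bp away. Both Nse2 regions over this site had their summit at the central site, so no Nse2 summit could be seen at the 5′ site. Each of these Pli1 regions also spanned ITS2, the 5.8S gene, ITS1 and the end of 18S.

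**Figure D4:**
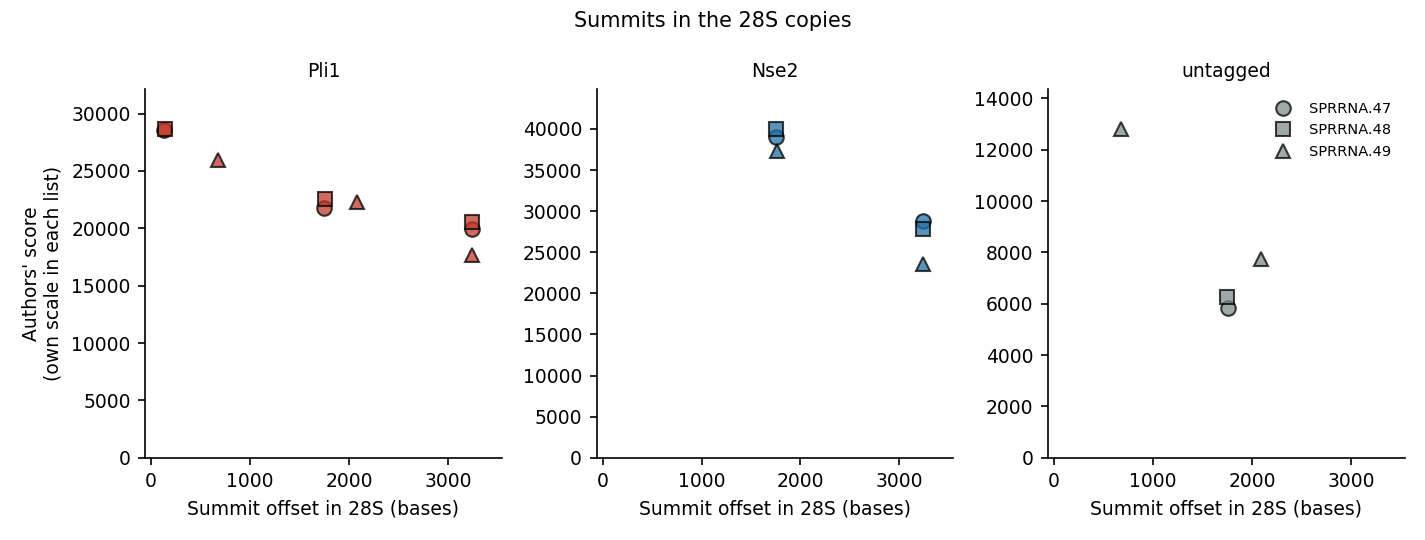
Summit offset in the 28S gene (x axis, bases from the 5′ end) against the authors' score (y axis, on each list's own scale) for the Pli1, Nse2 and untagged lists, with a marker shape per gene copy. Summits of SPRRNA.47 and SPRRNA.48 lie close together in every list, while SPRRNA.49 has summits at 681 and 2086 for Pli1 and at 676 and 2094 for the untagged list, and at the shared 3′ site (3244) for Pli1.

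In 18S, tagged and untagged summits lay at different places. The central site held 2 Pli1 summits, at offset 725 of SPRRNA.46 (6085) and 722 of SPRRNA.45 (8191). It held 3 Nse2 summits, at offset 725 of SPRRNA.44 (6346), 725 of SPRRNA.46 (8225) and 713 of SPRRNA.45 (9848). The untagged list had none there, and its nearest peak was 635 to 6673 bp away from these tagged summits. Untagged summits lay near the 3′ end instead, at offsets 1516 of SPRRNA.43 (3331), 1485 of SPRRNA.44 (7115) and 1540 of SPRRNA.46 (1824), ranks 6, 3 and 8 of 3535. Those bases were also inside Pli1 and Nse2 regions, but the summits of these regions were in 28S.

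Taking 18S and 28S as one set, 4 of 11 Pli1 summits (36.4%, exact Clopper-Pearson 95% interval 10.9 to 69.2%) and 3 of 9 Nse2 summits (33.3%, 7.49 to 70.1%) lay inside untagged peaks. All of these were in 28S. The remaining 7 Pli1 and 6 Nse2 summits lay at the 3′ and 5′ sites of 28S and at the central site of 18S. Of the Pli1 summits, 7 of 11 (63.6%, 30.8 to 89.1%) had an Nse2 summit within 100 bp, and 7 of 9 Nse2 summits (77.8%, 40 to 97.2%) had a Pli1 summit that close. The intervals cover counting error only, and treat summits of copies with one sequence as if they were separate. Untagged peaks covered 18.3% of the bases of the 18S and 28S copies, which lies inside both intervals for summits in untagged peaks. The same shares over all summits of each list were not computed. Whether the overlap with untagged peaks or the nearness of the ligases' summits is unusual for these lists was therefore not tested.

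The spacers were filled almost wholly in the tagged lists and held no untagged peak. ITS1 and ITS2 lay 100% inside Pli1 and Nse2 regions in all 3 repeats, against 0% in the untagged list. The intergenic spacers were covered to 97.4% by Pli1 regions and to 100% by Nse2 regions, against 0% by untagged peaks. The 3 chromosomes were covered to 99.3%, 99.8% and 18.7% in the same order. Near-complete cover by the tagged lists was therefore not particular to the spacers. The Pli1 list did not cover 158 bp at offsets 3459 to 3616 of the spacer after SPRRNA.47 and 195 bp at offsets 3453 to 3647 of the spacer after SPRRNA.48, counted from the first base after 28S. These gaps were AT-rich, with a GC content of 29.1% and 27.2%. It also missed 13 bp just before SPRRNA.43. On the right arm, the spacer after SPRRNA.49 had no gap.

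Upstream of 18S a further site recurred. Pli1 summits lay 692 bp before SPRRNA.42 (score 6688), 698 bp before SPRRNA.43 (6016), 698 bp before SPRRNA.44 (9289) and 695 bp before SPRRNA.46 (13441). Nse2 summits lay 699 bp before SPRRNA.44 (11713) and 698 bp before SPRRNA.46 (14656), within 1 and 3 bp of the Pli1 summits. Before SPRRNA.42, SPRRNA.43 and SPRRNA.45 the Nse2 region was continuous with that of the 28S 3′ site and had its summit there, as the Pli1 region before SPRRNA.45 did. The nearest untagged peak was 2057 to 5473 bp away from these summits. The site before SPRRNA.44 falls in the non-coding RNA gene SPNCRNA.1094 (chrIII:23658-23889).

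The start of the intergenic spacer, after 28S, was covered by both tagged lists. The motif GGGTAA, the core of the sequence that Reb1 binds, was searched on both strands of the repeats and occurred in each intergenic spacer at 2 places, both on the strand of the genes. Matches inside the genes lay at offsets 358, 442 and 1552 of 18S and at 2326, 2793 and 3075 of 28S, some of them in uncalled stretches. The spacer matches lie 301 and 484 bp after the end of 28S on the left arm, and 311 and 494 bp after it on the right. The 6 bases are common, being present in 76.5% of genome windows of 4666 bp, the length of the spacer. The 2 places, however, share a longer run of 17 bp, shown in capitals with its flanks from the spacer after SPRRNA.48 (minus strand):
First run (chrIII:16596-16652): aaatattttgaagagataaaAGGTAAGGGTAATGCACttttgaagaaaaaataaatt
Second run (chrIII:16413-16469): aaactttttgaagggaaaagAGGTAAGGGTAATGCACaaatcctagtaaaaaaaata
The run occurred 6 times in the 3 chromosomes, all in these spacers, and in 0.111% of the windows. All 6 occurrences lay inside Pli1 and Nse2 regions and none inside an untagged peak, which follows from the cover of these spacers (97.4%, 100% and 0% in the Pli1, Nse2 and untagged lists) and says nothing particular to the runs. The summits of those regions were not at the runs but at the 3′ site of 28S, 243 bp before the end of SPRRNA.48 for both ligases. A match says only that the letters are present, and it does not show that Reb1 was bound.

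Beyond the arrays, toward the centromere, both tagged lists had gaps near the first 18S gene of each end. The region that holds the site upstream of 18S reached from the 5′ edge of that gene to the gap. The Pli1 gaps were 3964 bp long on the left (chrIII:24518-28481) and 4222 bp on the right (chrIII:2435658-2439879). In the Nse2 list the left gap was 2074 bp long (chrIII:24541-26614), and the right one was broken by a region of 448 bp with a score of 97, the lowest of the list. Both Pli1 gaps were AT-rich (GC content 31.3% and 31.1%) and mostly repeated sequence (96.6% and 96.5% of 50-base words). The outer 30 kb held 29711 repeated and 239 single words on the left, and 19129 and 10822 on the right. The left gap was thus less repeated than the end around it, and the right gap more. In the outer 30 kb of the right arm, 66.5% of repeated 50-base words began in a Pli1 region and 84.7% in an Nse2 region, against 98.7% and 99.1% of words that occur once. On the left arm the order was the opposite, with 65.2% and 78.7% of repeated words against 43.9% and 64.9% of single ones. Most of the only 239 single words there lie in the left Pli1 gap, so this order is not a separate observation from that gap.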

How the data were processed

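Called regions were examined in 3 ChIP libraries. Per the labels' protocols, the ratio of ChIP to input was normalised to a budding yeast calibrator. Tools named without version or role, per the submitters' processing notes, are MACS3, SAMtools, Bowtie2 and cutadapt, and the only build named is sacCer3 (budding yeast). Per the file headers, the reads were those mapped uniquely to S. pombe, and calling used a p-value track. Whether "uniquely" refers to 1 position or to 1 of the 2 genomes is not given, and reads shared with the calibrator were not examined here. Regions were called wholly inside 18S and 28S copies, where 100% of words of 36, 50 and 100 bases are repeated. How this bears on the meaning of "uniquely" was not tested. Deposited scores are whole numbers. Neither their scale nor the calling threshold nor the depth is known, so scores were ranked within a list. The deposited fold, p-value and q-value columns hold 0 throughout and were not used. The fission yeast build is not stated; sequence names and versions match ASM294v3.

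Regions touched a gene by at least 1 bp, and positions count from 1. Code in Python 3.11.15 with NumPy 2.4.6, SciPy 1.17.1, Biopython 1.88 and Matplotlib 3.10.9 was tested on simulated regions. The genes, lists and summit windows were chosen with earlier results of these data known. The summit windows and the motif were set after the summits were seen. Every 18S and 28S gene is named. The 3 inputs were left out.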

Additional observations from a re-analysis of the deposited data

How the results depend on the processing

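Of 46 alternative values for 21 results, 31 stayed within the exact 95% binomial interval (shares) or within 1.5 times (counts) of the reported value, and 15 moved. Some of the 31 could not move because the copies are identical. These are the 28S 3′ offset ranges in alignment columns and the shares of repeated words of 36 and 100 bases. Further values were fixed by the peaks themselves. Dropping untagged scores below 100 removed no peak at the copies, where the lowest untagged score was 1824. No untagged peaks there lay within 500 bp of each other, so merging them changed nothing. The interval is narrow for shares of bases and wide for shares of summits. For shares of bases it treats neighbouring bases as independent, which they are not, so it does not measure the uncertainty of cover. Merging regions within 500 bp raised the cover of 18S to 43.2% (Pli1) and 70% (Nse2) and that of 28S to 75% (Pli1). It lowered the regions touching the 8 copies to 8 (Pli1) and 6 (Nse2), and the summits in them to 6 (Pli1) and 6 (Nse2, from 9). With regions of at least 500 bp, 18S cover was 26.7% (Pli1), 36.4% (Nse2) and 0% (untagged, all of whose 18S peaks are shorter), and untagged 28S cover was 17.5%. Without the outermost copies, 18S cover was 38.1% (Pli1), 55.4% (Nse2) and 21.9% (untagged). Requiring 50% of a region to lie inside a copy left 5 Pli1 and 6 Nse2 regions. These changes follow from how each alternative is built. With summits counted as near within 500 bp, the shares near a summit of the other ligase were 72.7% (Pli1) and 88.9% (Nse2). No paired analysis was possible because each strain has 1 ChIP library. Read depth is not given, so uncovered bases cannot be read as free of signal.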
